A study of Homo sapiens with 36 samples.

Results

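The genes described here are 10 genes that make, sense, take up and break down prostaglandins: PLA2G4A, PTGS1, PTGS2, PTGES, PTGES2, PTGES3, PTGER4, SLCO2A1, HPGD and PTGR1. They were chosen by name as members of the pathway, with earlier results of these data known. All 10 were found among the 57500 genes of the count table. Polyadenylated RNA was sequenced from FLO1 and OE33, established human lines of esophageal adenocarcinoma. Each line carried by stable transduction a non-targeting shRNA (shControl) or 1 of 2 shRNAs against APE1, a DNA repair and redox protein encoded by APEX1 (shAPE1#1 and shAPE1#3), and whether a transduced line is a clone or a pool is not stated. Cells were left unexposed or were exposed for 20 min to bile salts in acid (called ABS here; 200 µM, pH 4.0) and collected 6 h later, as a model of reflux. The 12 groups had 3 libraries each, described as independent biological replicates, 36 in all. The medium was DMEM for FLO1 and RPMI1640 for OE33, so line and medium cannot be told apart.

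Prostaglandins are lipid mediators made from arachidonic acid. A phospholipase (PLA2G4A) frees the fatty acid from membranes, a cyclooxygenase (PTGS1, the constitutive COX-1, or PTGS2, the inducible COX-2) turns it into a common precursor, and terminal synthases (PTGES, PTGES2, PTGES3) form the E series, which acts on receptors such as PTGER4. The signal ends when the transporter SLCO2A1 carries prostaglandin into the cell, HPGD oxidises it and PTGR1 reduces the product. COX-2 is known for its rise in esophageal adenocarcinoma and HPGD for its loss in cancers of the gut.

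Library totals were 20.65 to 40.65 M counts (M, 1000000), and levels are given as counts per 1000000 counts of the library (CPM). APEX1, the target of the shRNAs, was at 171 to 202 CPM in the shControl libraries and at 20.8 to 38.2 CPM in the shAPE1 libraries, lower in every one of them. The epithelial label was checked on 10 epithelial markers. In OE33 all 10 had a median of at least 1 CPM, with EPCAM at 462 to 650 CPM. In FLO1 only 6 did, with KRT8 at 1476 CPM or more but the defining marker EPCAM nearly absent at 0.347 to 1.70 CPM. CDH1 was at 6.53 to 19.6 CPM and KRT19 at 3.77 to 19.1 CPM in FLO1, against 324.6 to 464 and 8142 to 13010 CPM in OE33. The summed immune markers were at most 7.35 CPM in any library, with MS4A1 at 0, and the summed platelet markers, of a cell type rich in PTGS1, were at most 0.782 CPM. The summed fibroblast markers were at 20.9 CPM in replicate 3 of OE33 shControl after ABS, where the other OE33 libraries had 2.49 to 5.92 CPM and FLO1 18.9 to 37.2 CPM. Without that library 1 call on a member was lost, that on PTGES with shAPE1#1 after ABS (-0.22, adjusted p = 0.0896). 1 column name, that of replicate 3 of the exposed FLO1 shAPE1#3 cells, carries an extra suffix and was used as named. Replicate 2 of FLO1 shControl after ABS stood apart from its group, with PTGES3 at 226 CPM against 334 and 373 CPM and PTGR1 at 29.15 CPM against 41.8 and 44.4 CPM. Whether the hairpins of shAPE1#1 and shAPE1#3 are distinct in OE33 was not decided by the data: of 15540 genes 0 differed between these cells unexposed and 18 after ABS.

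The windows just before the start sites of PTGS2, PLA2G4A and PTGS1 are shown because PTGS2 and PLA2G4A differed together with knockdown in OE33 and PTGS1, the other cyclooxygenase, is described with ABS. They are RefSeq windows on GRCh38.p14, each 250 bases long and ending at the base before a start site, at chr1:186680424-186680673 on the minus strand (PTGS2), chr1:186828699-186828948 on the plus strand (PLA2G4A) and chr9:122370283-122370532 on the plus strand (PTGS1, the more upstream of its windows).
PTGS2: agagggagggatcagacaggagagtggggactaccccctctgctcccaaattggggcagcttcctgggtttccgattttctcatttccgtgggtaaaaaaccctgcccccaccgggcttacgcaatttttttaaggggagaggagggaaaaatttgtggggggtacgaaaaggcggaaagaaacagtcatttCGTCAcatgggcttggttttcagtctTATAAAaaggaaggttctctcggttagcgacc
PLA2G4A: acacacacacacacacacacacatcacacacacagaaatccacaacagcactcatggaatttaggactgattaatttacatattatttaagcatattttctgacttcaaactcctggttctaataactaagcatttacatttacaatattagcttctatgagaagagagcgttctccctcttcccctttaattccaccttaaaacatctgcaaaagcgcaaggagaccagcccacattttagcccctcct
PTGS1: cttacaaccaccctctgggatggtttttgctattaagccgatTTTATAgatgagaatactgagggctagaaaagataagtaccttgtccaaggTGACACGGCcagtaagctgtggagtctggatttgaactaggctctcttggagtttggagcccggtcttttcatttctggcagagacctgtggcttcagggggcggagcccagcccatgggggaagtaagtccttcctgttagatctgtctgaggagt
Capitals mark matches to the letters searched, on both strands. The cyclic AMP element (CRE, TGACGTCA) was in 1.65% of all 35116 windows of this length, and its core TGACG, which is also found inside every whole CRE, in 21.2%. The AP-1 site TGAGTCA, on either strand, was in 4.2%. The E-box CACGTG was in 6.34%. For NF-kB only selected forms of the site were searched, not the full consensus, and these were in 4.24%. Other forms of the NF-kB site were not searched, so an unmarked window may still hold them. The core of the antioxidant response element, TGACNNNGC, was in 10.9%, and the TATA box TATAAA in 10.7%. The PTGS2 window held the CRE core on its minus strand, at position -58 from the start, and a TATA box at -32. The PLA2G4A window held no match, and 38.8% of its bases were G or C. The PTGS1 window held an antioxidant response core at -157 and, on the minus strand, the TATA box letters at -208. Both HPGD windows in the table lie wholly within annotated exons of longer transcripts and are not printed. A match here is a run of letters only, and its absence says only that these letters are not in the window.

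Levels of the 10 genes were set side by side per kilobase of exon, since genes of different length collect different numbers of reads. In unexposed shControl OE33 cells PTGES3, also a co-chaperone of HSP90, was highest at 138 ± 11.4 CPM per kb (SD, n = 3). The inducible E synthase PTGES followed at 64.9 ± 3.72 CPM per kb, and the membrane-associated E synthase PTGES2 at 52.4 ± 3.86 CPM per kb. HPGD was at 4.804 ± 0.453 CPM per kb and PLA2G4A at 4.09 ± 0.400 CPM per kb, neighbours whose libraries overlapped. PTGS2 followed at 2.53 ± 0.439, PTGR1 at 1.33 ± 0.242 and PTGER4 at 0.540 ± 0.0465 CPM per kb. PTGS1 (0.05001 ± 0.0409 CPM per kb) and SLCO2A1 (0.00469 ± 0.00532 CPM per kb) were lowest, the latter with 4 counts in the 3 libraries together.

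FLO1 had another order. PTGES3 (99.95 ± 12.8 CPM per kb) and PTGES2 (83.7 ± 10.4 CPM per kb) were again high and overlapped each other, but PTGR1 (10.47 ± 0.473 CPM per kb) and PTGER4 (3.18 ± 0.216 CPM per kb) came next. PTGES was at 0.896 ± 0.470 and SLCO2A1 at 0.237 ± 0.0340 CPM per kb. HPGD, PLA2G4A, PTGS1 and PTGS2 lay at 0.0392, 0.0214, 0.0142 and 0.00880 CPM per kb, each with 4 to 18 counts in the 3 libraries together, and their libraries overlapped. The plot of levels per kilobase shows all 36 libraries.

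**Figure D1:**
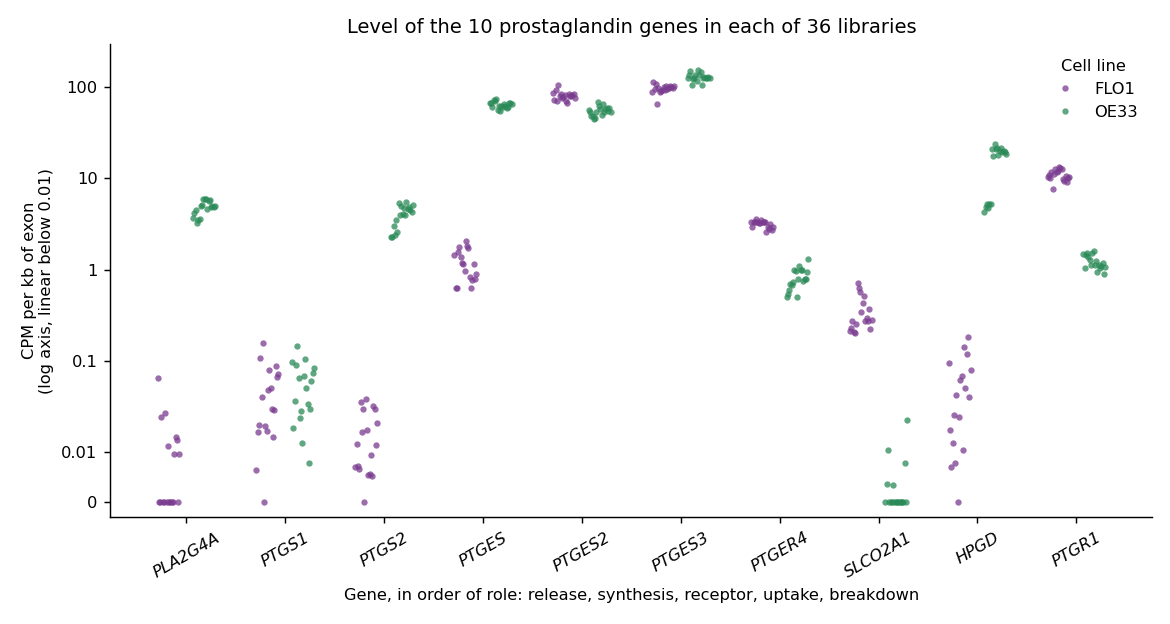
Level of each of the 10 genes in every library, as CPM per kb of exon on a log axis that is linear below 0.01, with 1 point per library, purple for FLO1 and green for OE33 (18 libraries each). PLA2G4A, PTGS2, PTGES and HPGD are high in OE33 and near 0 or low in FLO1, SLCO2A1, PTGR1 and PTGER4 are higher in FLO1, and PTGS1 is low in both.

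All 10 genes differed between unexposed shControl cells of the lines (edgeR, Benjamini-Hochberg adjusted), 6 higher and 4 lower in OE33, which must be read beside the 77.6% of all 18199 genes tested that were called in this comparison. PTGS2 was higher in OE33 by 8.14 ± 0.34 (log2, SE; adjusted p = 1.68e-22), PLA2G4A by 7.66 ± 0.32 (1.52e-21), HPGD by 7.06 ± 0.31 (1.09e-21) and PTGES by 6.32 ± 0.16 (3.74e-29). In FLO1 these rest on few counts: 4 for PTGS2, 18 for HPGD, of which 14 came from 1 library, and 5 for PLA2G4A, all from 1 library. PTGES had 142, of which 74 came from 1 library. Without that library, FLO1 shControl replicate 1 in each case, HPGD stood at 8.62 and PTGES at 6.83. PLA2G4A was then at 0 in the FLO1 libraries left, so that its fitted value is no bound. Each of these calls held under every alternative run, with PLA2G4A at 6.62 and HPGD at 6.34 at the lowest. PTGES3 (0.60 ± 0.11, adjusted p = 5.94e-06) and PTGS1 (1.87 ± 0.67, adjusted p = 0.012) were also higher in OE33. The PTGS1 call was lost without shControl replicate 1 of FLO1 (1.55, adjusted p = 0.0555) or of OE33 (0.99, adjusted p = 0.24). Lower in OE33 were SLCO2A1 (-5.37 ± 0.49, adjusted p = 2.12e-11), PTGR1 (-2.85 ± 0.13, 2.02e-21), PTGER4 (-2.42 ± 0.17, 1.49e-15) and PTGES2 (-0.55 ± 0.13, 0.00021). SLCO2A1 ran from -4.87 without OE33 shControl replicate 1 to -6.575 without replicate 3. PTGS2 and PLA2G4A passed the filter on low counts only through OE33, and SLCO2A1 only through FLO1. Members that enter in this way had to differ, so their p-values and their places among the 10 are given as description. Across the 18 FLO1 libraries PTGS2 never exceeded 6 counts (0.197 CPM) and PLA2G4A never exceeded 5 counts (0.184 CPM), with 10 libraries at 0. In bulk RNA fewer expressing cells and less RNA per cell cannot be told apart.

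In OE33, knockdown of APE1 went with higher levels of genes at both ends of the pathway. HPGD, PTGS2 and PLA2G4A were called higher with both shRNAs, unexposed and again after ABS, and no member fell with both. Unexposed, 3 of 9 members tested were called with both shRNAs, where 12.9% of all genes were. After ABS it was again 3 of 9, against 12.4% of all genes. Both shRNAs are compared with the same shControl libraries. With shAPE1#1 alone 3 of 9 members were called unexposed (16.4% of all genes) and 4 after ABS (15.8%), and with shAPE1#3 alone 4 of 9 unexposed (21.7%) and 3 after ABS (18.1%). The median log2 change of the 9 members was 0.23 with shAPE1#1 and 0.13 with shAPE1#3 unexposed, against 0.006 and -0.003 over all genes. The members were chosen with earlier results of these data known, so these shares and medians are description. The summed epithelial markers moved with knockdown in OE33, at 25700 to 27870 CPM in the 6 shControl libraries and at 21410 to 24620 CPM in the 12 shAPE1 libraries, without overlap. Their part in the results was not tested.

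At the release step, PLA2G4A (chr1:186828953-186988981, plus strand, GRCh38), the calcium-dependent cytosolic phospholipase, was at 10.55, 11.9 and 12.8 CPM in the 3 unexposed OE33 shControl libraries. It was at 14.2, 14.6 and 17.0 CPM with shAPE1#1. It was at 16.2, 16.5 and 14.1 CPM with shAPE1#3. All 6 knockdown libraries lay above all 3 controls. The changes were 0.37 ± 0.11 (adjusted p = 0.017) and 0.43 ± 0.11 (adjusted p = 0.0057) on the log2 scale. After ABS the controls were at 9.34, 10.1 and 10.3 CPM and the 6 knockdown libraries at 13.4 to 17.2 CPM, again without overlap, with changes of 0.63 ± 0.11 (adjusted p = 0.000148) and 0.53 ± 0.11 (adjusted p = 0.000989). The unexposed shAPE1#1 call was lost without shControl replicate 1 (0.31, adjusted p = 0.0913) or without shAPE1#1 replicate 3 (0.30, adjusted p = 0.0919).

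At the cyclooxygenase step, PTGS2 (chr1:186671791-186680427, minus strand) was at 11.96, 12.02 and 16.0 CPM in unexposed shControl OE33 cells. It was at 28.4, 20.9 and 26.5 CPM with shAPE1#1. It was at 29.1, 24.2 and 25.4 CPM with shAPE1#3. The groups did not overlap, and the changes were 0.93 ± 0.13 (1.9-fold, adjusted p = 1.63e-05) and 1.00 ± 0.135 (2.0-fold, adjusted p = 5.85e-06). After ABS the controls were at 12.6, 18.6 and 13.8 CPM, shAPE1#1 at 21.3, 25.2 and 20.9 CPM and shAPE1#3 at 23.5, 22.6 and 27.3 CPM. All knockdown libraries were again the higher ones, by 0.55 ± 0.13 (adjusted p = 0.0052) and 0.71 ± 0.13 (adjusted p = 0.000362).

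At the breakdown step, HPGD (chr4:174490177-174523154, minus strand), the dehydrogenase that inactivates prostaglandins, had the largest change of the 9 members tested in OE33. It was at 23.9, 26.9 and 28.9 CPM in unexposed shControl cells. It was at 115, 96.4 and 132 CPM with shAPE1#1. It was at 110, 120 and 107 CPM with shAPE1#3. The lowest knockdown library was over 3 times the highest control. HPGD rose by 2.11 ± 0.095 (4.31-fold, adjusted p = 3.07e-14) and 2.10 ± 0.10 (4.3-fold, adjusted p = 2.81e-14). After ABS it was at 26.5, 29.1 and 28.7 CPM in shControl, 118, 120 and 98.9 CPM in shAPE1#1 and 110, 109 and 104 CPM in shAPE1#3. The changes there were 1.96 ± 0.09 (adjusted p = 1.47e-13) and 1.94 ± 0.09 (adjusted p = 1.83e-13).

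**Figure D2:**
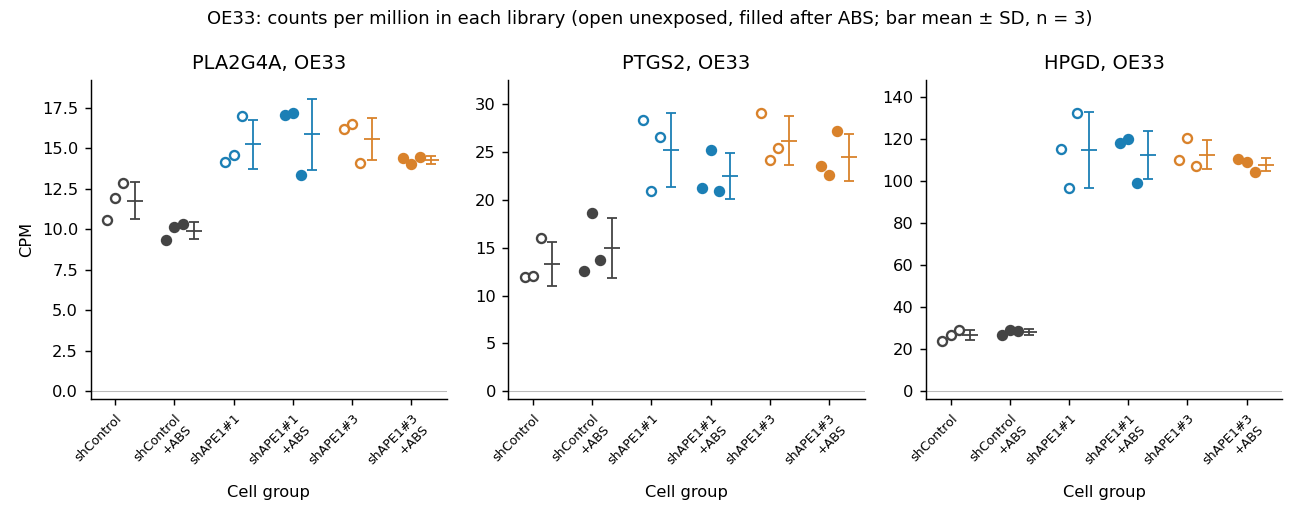
CPM of PLA2G4A, PTGS2 and HPGD in each OE33 library, by cell group, with open points unexposed, filled points after ABS and bars for the mean ± SD (n = 3). The shAPE1 points lie above the shControl points in each panel, and HPGD goes from 23.9 to 29.1 CPM in the controls to 96.4 to 132 CPM.

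PTGS2 lies on the synthesis side of the pathway and HPGD on the breakdown side. Their ratio was taken per library, a measure chosen after the values were seen. Per kb of exon HPGD was at 1.91, 2.13 and 1.72 times PTGS2 in unexposed shControl OE33 libraries. The ratio was 3.87, 4.39 and 4.75 with shAPE1#1 and 3.60, 4.75 and 4.02 with shAPE1#3. After ABS it was 1.83 ± 0.291 in shControl, 4.77 ± 0.435 in shAPE1#1 and 4.23 ± 0.516 in shAPE1#3 (SD, n = 3). All 12 knockdown libraries lay above all 6 controls. Each of the 4 comparisons of 3 with 3 libraries gave an exact permutation p of 0.10 (two-sided; 0.10 after adjustment), the smallest that this design allows.

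The receptor PTGER4 (chr5:40679498-40693735, plus strand), which couples to cyclic AMP, was at 1.97, 2.115 and 2.33 CPM in unexposed OE33 shControl cells. It was at 3.95, 3.81 and 1.99 CPM with shAPE1#1 and at 3.92, 2.98 and 3.12 CPM with shAPE1#3. shAPE1#3 lay above the controls and passed the test (0.66 ± 0.23, adjusted p = 0.041), while replicate 3 of shAPE1#1 lay among the controls and that change did not pass (0.60 ± 0.225, adjusted p = 0.0694). Each OE33 library holds only 53 to 141 counts of PTGER4, and the call was lost without any 1 of the 6 libraries compared (0.53 to 0.73, adjusted p of 0.0516 to 0.173). After ABS the changes were 0.40 ± 0.21 and 0.52 ± 0.21 (adjusted p = 0.226 and 0.0888). PTGER4 overlaps TTC33 on the opposite strand, and the strand used in counting is not stated.

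Of the E synthases in OE33, PTGES (chr9:129738331-129753047, minus strand) was lower with shAPE1#1 after ABS, at 119, 115 and 126 CPM against 138, 134 and 142 CPM in shControl. Its change was -0.24 ± 0.07 (adjusted p = 0.019), lost without replicate 1 or 3 of shControl or without replicate 1 or 2 of shAPE1#1 after ABS (-0.19 to -0.25, adjusted p of 0.0528 to 0.095). With shAPE1#3 after ABS the change was -0.12 ± 0.07 (adjusted p = 0.265), and unexposed the changes were -0.15 and -0.06 (adjusted p = 0.155 and 0.571). PTGES2 (chr9:128120693-128128462, minus strand) changed by 0.23, 0.13, 0.27 and 0.27 in the 4 knockdown comparisons, with adjusted p of 0.056 at the lowest. PTGES3 (chr12:56663341-56688408, minus strand) changed by -0.02, -0.09, 0.08 and 0.10, none called. PTGR1 (chr9:111549722-111599893, minus strand), which overlaps ZNF483 on the opposite strand, was at 3.34 to 5.97 CPM in OE33 and was not called, with 0.08, -0.27, -0.38 and -0.43 in the same order. PTGS1 (chr9:122370530-122395703, plus strand) had 1 to 23 counts per OE33 library and changes of -1.19, -1.04, -0.47 and -0.45, none called. SLCO2A1 (chr3:133928145-134052184, minus strand) was at 0 in 13 of 18 OE33 libraries and at most at 6 counts, and did not enter the test.

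The knockdown effect did not differ detectably between unexposed and exposed OE33 cells: the interaction was called for 0 of 9 members with shAPE1#1 (0.0% of all genes), with shAPE1#3 (0.0129%) and with both (0.0%). At an unadjusted p under 0.05 it was 0 members with either shRNA, and DESeq2 called 0. The PTGS2 effect was 0.93 with shAPE1#1 and 1.00 with shAPE1#3 unexposed, and 0.55 and 0.71 after ABS. A difference of that size did not pass here. The 2 shAPE1 groups of OE33 did not differ in any member, unexposed (0 of 9; 0.0% of all genes; 1 member, PTGR1, at an unadjusted p under 0.05) or after ABS (0 of 9; 0.116%; 0 members unadjusted), and DESeq2 called 0 in each. For HPGD their unexposed difference was -0.004 with a 95% interval of -0.19 to 0.18, and for PTGS2 it was 0.07 with an interval of -0.20 to 0.34.

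**Figure D3:**
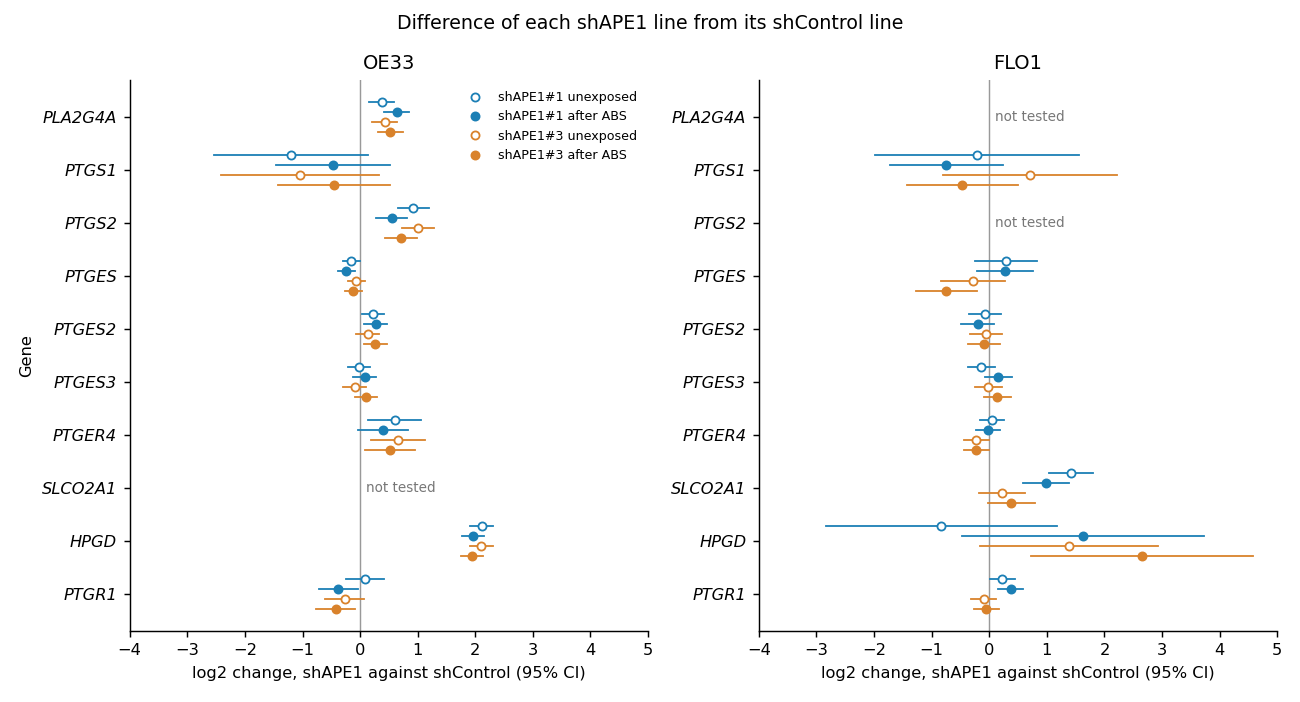
log2 change of each gene in shAPE1 against shControl cells with its 95% confidence interval, OE33 at left and FLO1 at right, with open points unexposed, filled points after ABS, blue for shAPE1#1 and orange for shAPE1#3. In OE33 the intervals of HPGD, PTGS2 and PLA2G4A all lie above 0, and in FLO1 those of SLCO2A1 do so with shAPE1#1 only; genes marked as not tested had too few counts.

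In FLO1 the called genes were others. No member was called with both shRNAs, unexposed (0 of 8 tested; 0.0711% of all 16868 genes) or after ABS (0 of 8; 0.142%), with 0 members at an unadjusted p under 0.05 with both and 0 by DESeq2. With shAPE1#1, 1 of 8 members was called unexposed (6.74% of all genes) and 2 after ABS (16.6%), all higher. With shAPE1#3 it was 0 of 8 unexposed (0.788%; 1 member, PTGER4, at an unadjusted p under 0.05) and 0 after ABS (0.783%; 3 members, HPGD, PTGES and PTGER4, unadjusted), and DESeq2 called 0 in each. The interaction of knockdown and ABS was called for 0 of 8 members with shAPE1#1 (0.0% of all genes), with shAPE1#3 (0.0%) and with both (0.0%), with 0 members at an unadjusted p under 0.05 and 0 by DESeq2. PTGS2 and PLA2G4A were not tested in FLO1, where their counts were too low.

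SLCO2A1, the importer, was at 2.06, 2.21 and 2.70 CPM in unexposed FLO1 shControl cells. It was at 7.02, 6.12 and 5.59 CPM with shAPE1#1, all above the controls. It was at 2.68, 2.88 and 2.64 CPM with shAPE1#3, which overlapped the controls. SLCO2A1 rose with shAPE1#1 by 1.42 ± 0.18 (2.67-fold, adjusted p = 2.78e-05). With shAPE1#3 the change was 0.22 ± 0.19 (adjusted p = 0.83). After ABS the libraries were at 2.05, 1.98 and 2.45 CPM in shControl, 3.38, 4.20 and 5.01 CPM in shAPE1#1 and 3.64, 2.17 and 2.75 CPM in shAPE1#3. The shAPE1#1 change there was 0.985 ± 0.19 (adjusted p = 0.00125). Other measures set shAPE1#1 apart in FLO1. The summed epithelial markers were at 3726 to 3943 CPM in unexposed shAPE1#1 cells against 2454 to 2777 CPM in shControl and 2562 to 2602 CPM in shAPE1#3, and at 4270 to 4683 CPM after ABS against 2540 to 3092 and 2786 to 2841 CPM. The mitochondrial share of counts, unexposed, was 3.54 to 3.84% against 3.11 to 3.24% and 3.03 to 3.16%. The part of either in the results was not tested.

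The 2 shRNAs also differed from each other in FLO1. shAPE1#3 was below shAPE1#1 in 1 of 8 members unexposed (12.2% of all genes) and in 3 of 8 after ABS (22.3%). Unexposed, 4 members were called when the FLO1 shControl library that stood apart was left out. SLCO2A1, PTGR1 and PTGER4 were lower in shAPE1#3, and HPGD was higher there (2.22 ± 0.825 with all libraries, adjusted p = 0.0869). HPGD passed the filter on low counts in FLO1 mainly through shAPE1#3 cells, so its values here are given as description. A fit of only the groups compared called 5, PTGES, PTGES3, PTGER4, PTGR1 and SLCO2A1. Calls over all genes also went from 2054 to 5428 in that fit, and ran from 1321 to 3437 with 1 library left out. APEX1 itself was at 25.2 ± 0.191 CPM in unexposed shAPE1#1 cells and at 37.1 ± 1.06 CPM in shAPE1#3 cells (SD, n = 3), and the part of this difference in the others was not tested. SLCO2A1 was lower in shAPE1#3 unexposed (-1.20 ± 0.18, adjusted p = 6.73e-05) and after ABS (-0.60 ± 0.18, adjusted p = 0.019), the latter lost without shAPE1#1 replicate 3 or shAPE1#3 replicate 2 or 3 after ABS (-0.44 to -0.58, adjusted p of 0.0643 to 0.112). PTGES after ABS was at 3.93, 3.40 and 3.26 CPM in shAPE1#1 and at 2.19, 1.48 and 1.70 CPM in shAPE1#3, without overlap (-1.02 ± 0.24, adjusted p = 0.0043). PTGR1, which reduces the oxidised product of HPGD, was at 50.5, 48.7 and 47.5 CPM in shAPE1#1 and at 34.8, 38.0 and 38.9 CPM in shAPE1#3 after ABS, also without overlap (-0.42 ± 0.10, adjusted p = 0.0056).

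Against shControl after ABS, at 44.4, 29.15 and 41.8 CPM, PTGR1 was higher with shAPE1#1 by 0.37 ± 0.10 (adjusted p = 0.018). Without the shControl library that stood apart, replicate 2, the change was 0.24 (adjusted p = 0.0503) and the call was lost, as it was without shAPE1#1 replicate 1 after ABS (0.345, adjusted p = 0.0553) or in a fit of only the groups compared (0.37, adjusted p = 0.23). Unexposed, PTGR1 was at 38.7, 41.4 and 38.0 CPM in shControl and at 48.1, 44.7 and 45.6 CPM in shAPE1#1, which did not overlap, but the change of 0.22 ± 0.10 did not pass (adjusted p = 0.24).

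HPGD in FLO1 had between 0 and 32 counts per library and passed the filter on low counts mainly through shAPE1#3 cells. It was at 0.516, 0.0962 and 0.0381 CPM in unexposed shControl cells and at 0.787, 0.277 and 0.661 CPM with shAPE1#3. After ABS the shControl libraries were at 0.0694, 0.138 and 0.0429 CPM and the shAPE1#3 libraries at 0.997, 0.220 and 0.439 CPM, all 3 above the controls. Neither change passed (1.385 ± 0.745, adjusted p = 0.619; 2.65 ± 0.93, adjusted p = 0.295). With shAPE1#1 the changes were -0.83 ± 0.96 unexposed (adjusted p = 0.696) and 1.63 ± 1.01 after ABS (adjusted p = 0.287). The unexposed OE33 change of 2.11 lay within the 95% interval of the unexposed shAPE1#3 change (-0.17 to 2.93) and above that of shAPE1#1 (-2.84 to 1.17). PTGER4 in FLO1 was at 10.1 to 14.3 CPM, PTGES2 at 207 to 323 CPM and PTGES3 at 226 to 388 CPM, and none of them was called against shControl. PTGES changed by 0.29 and 0.28 with shAPE1#1 and by -0.29 and -0.74 with shAPE1#3, unexposed and after ABS, and PTGS1 by -0.21 and -0.74 and by 0.70 and -0.465, none called.

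**Figure D4:**
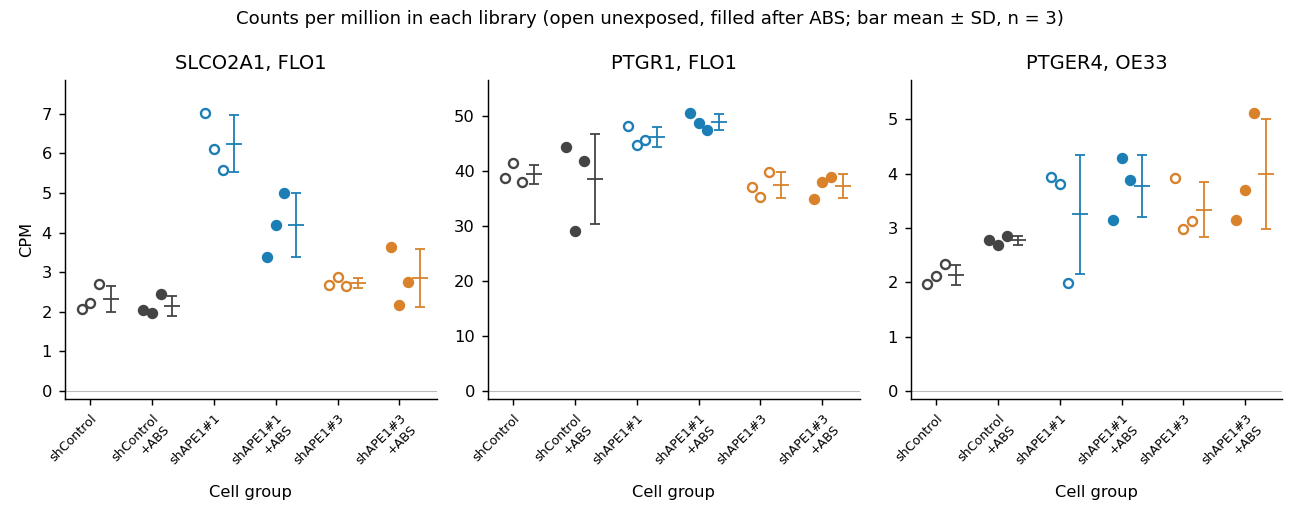
CPM of SLCO2A1 and PTGR1 in each FLO1 library and of PTGER4 in each OE33 library, by cell group, with open points unexposed, filled points after ABS and bars for the mean ± SD (n = 3). SLCO2A1 is highest in shAPE1#1 (5.59 to 7.02 CPM unexposed), PTGR1 has 1 low shControl library after ABS (29.15 CPM), and PTGER4 in OE33 has 1 shAPE1#1 library among the controls (1.99 CPM).

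The difference between the lines in the mean unexposed effect of both shRNAs was tested in a fit of all 36 libraries. It was called for 1 of 10 members, PTGER4, against 6.37% of all genes. PTGER4 changed more in OE33 by 0.70 ± 0.21 (adjusted p = 0.036), a call lost when 1 of 11 unexposed libraries was left out: FLO1 shControl replicate 1 or 3, shAPE1#1 replicate 1 or 2 or shAPE1#3 replicate 1, or OE33 shControl replicate 1, 2 or 3, shAPE1#1 replicate 1 or 2 or shAPE1#3 replicate 1 (0.62 to 0.75, adjusted p of 0.0504 to 0.108). For HPGD the difference was 1.80 ± 0.70 (95% interval 0.37 to 3.22, adjusted p = 0.14), called by DESeq2 but not by edgeR. For SLCO2A1, with 4 counts in the OE33 controls, it was -3.48 ± 1.38 (adjusted p = 0.149).

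The question of whether ABS alters the pathway was put to the unexposed and exposed cells of each group. Bile salts and acid were given together, so their parts cannot be told apart. In FLO1 shControl cells 1 of 8 members was called with ABS (3.0% of all genes), in shAPE1#1 cells 1 of 8 (5.01%) and in shAPE1#3 cells 0 of 8 (1.81%; 1 member, PTGS1, at an unadjusted p under 0.05, and 0 by DESeq2). With both shRNAs it was 0 of 8 (1.14%; 1 member, PTGS1, unadjusted with both, and 0 by DESeq2). In OE33 0 of 9 members were called in shControl cells (8.4% of all genes; 1 member unadjusted, PTGES), in shAPE1#1 cells (4.73%; 2 unadjusted, PTGS1 and PTGR1), in shAPE1#3 cells (2.26%; 1 unadjusted, PTGS1) and with both shRNAs (1.63%; 1 unadjusted, PTGS1), and DESeq2 called 0 in each.

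PTGS2 did not pass with ABS in OE33. Its shControl libraries went from 11.96, 12.02 and 16.0 CPM to 12.6, 18.6 and 13.8 CPM, which overlap, a change of 0.19 ± 0.14 (95% interval -0.09 to 0.47, adjusted p = 0.455). In the shAPE1 groups the changes were -0.19 ± 0.13 (adjusted p = 0.435) and -0.10 ± 0.13 (adjusted p = 0.78). HPGD changed by 0.10 ± 0.10, -0.05 ± 0.09 and -0.06 ± 0.09 in shControl, shAPE1#1 and shAPE1#3, none called, and PLA2G4A by -0.22 ± 0.11, 0.03 ± 0.105 and -0.12 ± 0.11, none called.

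PTGS1, the other cyclooxygenase, was higher after ABS in FLO1 at a very low level. In shControl cells it went from 0.0369, 0.0962 and 0.114 CPM (7 counts in all) to 0.625, 0.230 and 0.902 CPM (44 counts), a change of 2.72 ± 0.61 (adjusted p = 0.013). The call was lost without shControl replicate 1 (2.40, adjusted p = 0.0813) or 2 (2.83, adjusted p = 0.0592) or without replicate 3 after ABS (2.30, adjusted p = 0.0834). In shAPE1#1 cells PTGS1 went from 6 to 35 counts (2.19 ± 0.65, adjusted p = 0.056), and in shAPE1#3 cells from 14 to 40 counts (1.55 ± 0.545, adjusted p = 0.21). Across the line the 9 unexposed libraries lay at 0 to 0.172 CPM and the 9 exposed ones at 0.230 to 0.902 CPM, without overlap. PTGS1 passed the filter on low counts through the exposed cells: 0 of 9 unexposed and 6 of 9 exposed libraries reached the level it asks for, 0.338 CPM. A member that enters in this way had to differ, so the filtered p-values and these non-overlapping ranges are given as description. In the fit without that filter the shControl change was 2.72 ± 0.67 (adjusted p = 0.00529). That fit gave PTGS1 a larger error but a smaller adjusted p than the filtered fit. It did the same for SLCO2A1 with shAPE1#1 unexposed (1.42 ± 0.19, adjusted p = 5.94e-11, against 1.42 ± 0.18, adjusted p = 2.78e-05). Its p-values are therefore also given as description.

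SLCO2A1 fell with ABS in FLO1 shAPE1#1 cells, from 7.02, 6.12 and 5.59 CPM to 3.38, 4.20 and 5.01 CPM, without overlap (-0.59 ± 0.17, adjusted p = 0.045), a call lost when any 1 of 12 of the 18 libraries was left out. It held only without shControl replicate 3, shControl replicate 1 or 2 after ABS, shAPE1#1 replicate 3 after ABS, or shAPE1#3 replicate 1 or 2 after ABS, and otherwise ran from -0.46 to -0.67 with an adjusted p of up to 0.215. In shControl cells its change was -0.16 ± 0.20 (adjusted p = 0.77) and in shAPE1#3 cells 0.01 ± 0.185 (adjusted p = 0.994).

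Since the interactions called no member, the ABS effect was also averaged over the 3 cell groups of a line, a contrast chosen after the data were seen. It called 2 of 8 members in FLO1 (13.5% of all genes) and 2 of 9 in OE33 (26.2%), PTGS1 and PTGES in each line, all higher after ABS. PTGS1 rose by 2.15 ± 0.35 in FLO1 (adjusted p = 0.000165) and by 1.44 ± 0.34 in OE33 (adjusted p = 0.0027). In OE33 too it entered the filtered test mainly through exposed cells, since 1 of 9 unexposed and 7 of 9 exposed libraries reached the level asked for, 0.364 CPM. Without the filter it rose by 2.16 ± 0.38 in FLO1 (adjusted p = 1.31e-06) and by 1.44 ± 0.36 in OE33 (adjusted p = 0.00112). Here too the errors were larger and the adjusted p smaller than with the filter, so these p-values are also description. In OE33 the 9 unexposed libraries were at 0.0444 to 0.557 CPM (median 0.162) and the 9 exposed at 0.291 to 0.835 CPM (median 0.421), and 1 unexposed shControl library, at 0.557 CPM, lay within the exposed range. PTGS2 stood at -0.03 ± 0.08 (95% interval -0.191 to 0.123) and HPGD at -0.002 ± 0.05 (-0.111 to 0.107) in OE33. PTGES rose by 0.60 ± 0.15 in FLO1 (adjusted p = 0.0080) and by 0.14 ± 0.04 in OE33 (adjusted p = 0.015).

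PTGES levels were far apart in the lines. In FLO1 shControl they were 2.73, 1.19 and 1.18 CPM unexposed and 2.95, 3.31 and 2.62 CPM after ABS, with 1 unexposed library in the range of the exposed ones. In FLO1 shAPE1#1 they were 2.22, 2.19 and 1.84 CPM and then 3.93, 3.40 and 3.26 CPM, without overlap. In FLO1 shAPE1#3 they were 1.57, 1.19 and 1.45 CPM and then 2.19, 1.48 and 1.70 CPM, which overlap (0.30 ± 0.26, adjusted p = 0.755). In OE33 shControl PTGES went from 126, 128 and 115 CPM to 138, 134 and 142 CPM, without overlap, but this comparison alone did not pass (0.185 ± 0.07, adjusted p = 0.108). The difference of the shControl ABS response between the lines was called for 0 of 10 members (1.73% of all genes; 3 members unadjusted, PTGS1, PTGES and SLCO2A1; 0 by DESeq2). For PTGS1 it was -1.72 ± 0.82 (adjusted p = 0.38) and for PTGES -0.58 ± 0.23 (adjusted p = 0.25).

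**Figure D5:**
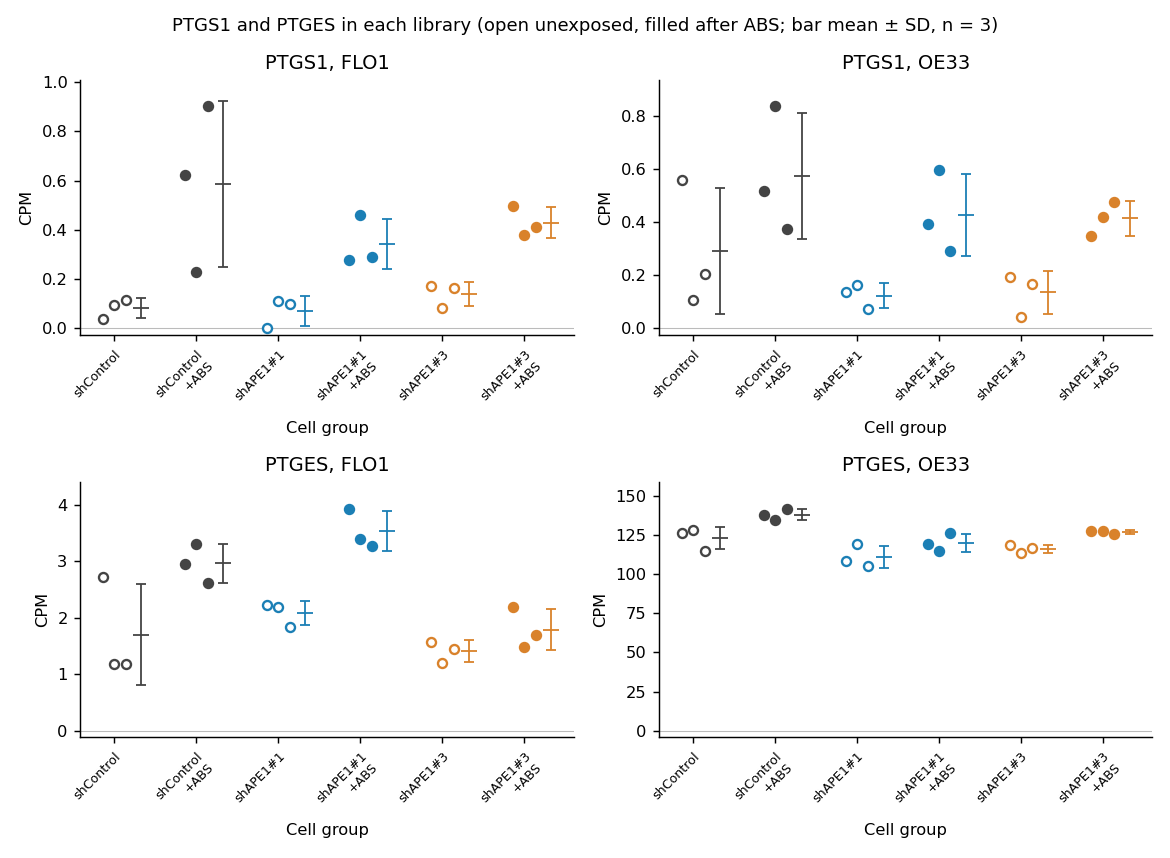
CPM of PTGS1 and PTGES in each library of FLO1 and OE33, by cell group, with open points unexposed, filled points after ABS and bars for the mean ± SD (n = 3). PTGS1 stays below 1 CPM in both lines and its FLO1 points after ABS (0.230 to 0.902 CPM) lie above the unexposed ones (0 to 0.172 CPM), while PTGES is at 1.18 to 3.93 CPM in FLO1 and at 105 to 142 CPM in OE33.

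The rest of the prostanoid and arachidonic acid system was followed in 6 lists with 69 genes. In OE33, 49 of them were tested, and 6 rose and 6 fell with both shRNAs unexposed (12.9% of all genes were called with both) and 5 rose and 4 fell after ABS (12.4%). Of the 12 tested genes of arachidonic acid release 3 rose and 1 fell unexposed with both. PLA2G15 rose by 0.33 ± 0.10 and 0.37 ± 0.10 (adjusted p = 0.0214 and 0.00958). PLAAT3, a phospholipase of adipose tissue, rose by 0.28 ± 0.07 and 0.335 ± 0.07 (adjusted p = 0.00869 and 0.00147). FAAH, which hydrolyses fatty acid amides, fell by 0.46 and 0.69 on the log2 scale (adjusted p = 0.0092 and 0.000221). Of the 4 other prostanoid synthases tested 1, AKR1C3, which makes the F series, fell: it went from 4.72 ± 0.581 CPM to 2.34 ± 0.0203 and 2.03 ± 0.0768 CPM (SD, n = 3; adjusted p = 2.65e-05 and 4.97e-06). AKR1C3 shares reads with close paralogs and is uncertain.

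Among 7 tested genes of the lipoxygenase and leukotriene branch, which draws on the same arachidonic acid, 1 rose and 2 fell with both shRNAs in unexposed OE33 cells. Over all genes 12.9% were called with both there. ALOX5, the first enzyme of leukotriene synthesis, fell from 101 ± 1.90 CPM to 38.2 ± 3.69 and 39.1 ± 2.35 CPM (SD, n = 3), a log2 change of -1.40 ± 0.09 and -1.35 ± 0.09 (adjusted p = 3.42e-11 and 8.21e-11). LTA4H, the next hydrolase, changed by -0.22 and -0.25, and the epidermal lipoxygenase ALOXE3 by 0.89 and 0.86. Of 7 tested genes of breakdown and transport, SLCO3A1 fell by 0.84 and 0.95 on the log2 scale, and the exporter ABCC4 rose by 0.36 ± 0.09 with each shRNA (adjusted p = 0.0060 and 0.0049). Among 16 tested regulators of PTGS2 mRNA 1 was called with both shRNAs: ZFP36L1, which binds AU-rich elements and promotes decay, rose by 0.55 ± 0.07 and 0.58 ± 0.07.

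In FLO1 none of 48 tested list genes was called with both shRNAs unexposed (0.0711% of all genes) or after ABS (0.142%). With shAPE1#1 alone 3 rose and 2 fell unexposed, where 6.74% of all genes were called. PPARG, a nuclear receptor for prostaglandin metabolites, rose from 0.528 ± 0.202 to 3.21 ± 0.457 CPM (SD, n = 3; 2.605 ± 0.235, adjusted p = 4.38e-07), and with shAPE1#3 it was at 0.422 ± 0.0463 CPM. PRXL2B, a synthase of the F series, fell by 0.74 on the log2 scale (adjusted p = 0.000939). With ABS, averaged over the cell groups, 7 of 16 regulators of PTGS2 mRNA rose and 0 fell in FLO1, where 13.5% of all genes were called, among them FOS by 2.15 ± 0.12 (adjusted p = 2.48e-11) and JUN by 0.65 ± 0.05 (adjusted p = 3.05e-09), in a line where PTGS2 had at most 6 counts. In OE33 7 rose and 1 fell, where 26.2% of all genes were called, with JUN at 0.27 ± 0.05 (adjusted p = 0.000248).

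The genes whose pattern was most like that of HPGD over the 18 OE33 libraries, by Pearson correlation of log2 CPM across libraries that share groups and sequencing depth, were CDK14 (0.987), PRSS23 (0.986), HOXB9 (0.986), GNG4 (0.985) and SERPINE2 (0.981), of 15540 genes. For PTGS2 they were QKI (0.973), ELL2 (0.961), FKBP14 (0.948), XPO5 (0.948) and ITPRID2 (0.947), and HPGD itself stood at 0.917 with PTGS2. For HPGD in FLO1, at its low counts, the highest values were lower: LYZ at 0.769, SERPINB5 at 0.752 and REG4 at 0.738 were the named genes among the first 5.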

How the data were processed

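The authors deposited a table of raw counts per gene for the 36 libraries, with 57500 gene identifiers. Trimmomatic 0.36, STAR 2.5.2b, featureCounts, Subread 1.5.2 and the build GRCh38 are named in the submitters' processing notes. Which annotation was counted, on which strand, and how reads with several matches were handled is not given in the sources used. Names, exon lengths and positions came from GENCODE release 29, which held 56898 of the identifiers (0.018% of counts were on the others), and promoter windows from RefSeq.

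Counts were tested with edgeR 4.0.16 (R 4.3.3, limma 3.58.1) by the quasi-likelihood test with TMM factors and the default filter on low counts, with 1 fit of the 18 libraries of each line and 1 fit of all 36 for differences between lines. p-values were adjusted by the Benjamini-Hochberg method over all genes tested, and calls were made at 0.05. The scripts were tested on simulated data. CPM are counts per 1000000 counts of a library. With 3 counts as the floor, the lowest level that a library can tell from 0 was 0.0738 to 0.145 CPM, which covers counting error only. The replicates are described as biological.

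The members and lists were chosen with earlier results of these data known. The text names all 10 members, and up to 4 called genes per other list and comparison whose mean log2 CPM was 0 or more, largest change first. The mean ABS effect and the ratio of HPGD to PTGS2 were chosen after the data were seen. Alternatives were RLE factors, DESeq2 1.42.0, no filter, an offset for GC content (spline with 5 degrees of freedom), only the groups compared, each library left out in turn and the replicate number as a block.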

Additional observations from a re-analysis of the deposited data

Results flagged for a closer look

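In FLO1 the change between the 2 hairpins against APE1 was itself past the test for 3 members. Over all genes 12.2% were called in this comparison unexposed and 22.3% after ABS. SLCO2A1 was lower with shAPE1#3 than with shAPE1#1 by a log2 change of -1.20 unexposed and of -0.60 after ABS. The call after ABS was lost when any 1 of 3 libraries was left out. PTGES differed by -1.02 and PTGR1 by -0.42 after ABS, all with lower values in shAPE1#3. Between the lines, the mean unexposed knockdown effect on PTGER4 was larger in OE33 than in FLO1 by 0.70 on the log2 scale, where 6.37% of all genes were called. That call was lost when any 1 of 11 libraries was left out and with the replicate block.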

How the results depend on the processing

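Of 38 calls on members 29 held under every alternative run, 4 were lost under a changed setting, 9 without some library, and 0 reversed. In FLO1 the count called with ABS in shControl was 1 and fell to 0 with only the groups compared, where PTGS1 could not be tested (0 to 1 without a library). For shAPE1#3 against shAPE1#1 in unexposed FLO1 it was 1, with 2 by RLE, 2 by DESeq2, 2 without the filter, 4 with the GC offset, 5 with only the groups compared and 1 to 4 without a library. In OE33 with ABS in shControl it was 0, and 1 (PTGES) with only the groups compared. For knockdown with both shRNAs in unexposed OE33 it was 3, 5 with the GC offset (also PTGES2 and PTGER4) and 2 to 3 without a library. For the difference in ABS response between lines it was 0, and 0 to 1 without a library (PTGES without FLO1 shControl replicate 1). For the difference in knockdown effect it was 1, with 2 by DESeq2, 2 without the filter, 2 with the GC offset and 0 to 1 without a library. Samples sharing a replicate number did not deviate together on average (mean correlation -0.036 in FLO1 and -0.021 in OE33, with 14 and 19 of 45 pairs over 0.1). Single pairs ran from -0.68 to 0.31 in FLO1 and from -0.55 to 0.33 in OE33. Whether the numbers mark shared handling was not decided. With the replicate block the count for the difference in knockdown effect was 0. The calls on SLCO2A1 with ABS in FLO1 shAPE1#1 cells and on PTGER4 with shAPE1#3 in OE33 were lost with it. The causes were not tested.

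Counts over all genes moved more than 1.5 times in several comparisons. With the GC offset the genes called with ABS in FLO1 went from 506 to 1550 in shControl, from 845 to 2284 in shAPE1#1 and from 306 to 1117 in shAPE1#3, and in OE33 from 1306 to 2368, 735 to 1528 and 351 to 722. The FLO1 knockdown calls went from 1137 to 2893 and 133 to 518 unexposed and from 132 to 536 for shAPE1#3 after ABS, those between shRNAs unexposed from 2054 to 3798, the mean ABS effect from 2276 to 4463, and the line differences from 315 to 953 and 1159 to 2383. With only the groups compared, FLO1 counts ran from 6 (shAPE1#3 after ABS) and 422 (shAPE1#1 after ABS, from 2795) to 5428 (between shRNAs unexposed). DESeq2 called 787 genes with ABS in FLO1 shControl and 28 for the FLO1 shAPE1#1 interaction, where edgeR called 0. Without 1 library the FLO1 counts ran from 287 to 923 (ABS in shControl), 376 to 2195 (in shAPE1#1), 163 to 743 (in shAPE1#3), 1800 to 4015 (mean ABS effect), 665 to 2319 and 47 to 407 (shAPE1#1 and shAPE1#3 unexposed), 1831 to 4565 and, from 132, 63 to 1126 (after ABS), and 1321 to 3437 and 2304 to 5643 (between shRNAs). With ABS in OE33 they ran from 683 to 1582, 248 to 1023 and 135 to 499, and between shRNAs from 0 to 27 unexposed and 9 to 54 after ABS; the line difference in ABS response ran from 202 to 887. Only the GC offset in the line comparison moved the median of all genes by more than 0.1, by -0.16. Genes under about 10 counts a library, such as PTGS1 and the FLO1 values of HPGD, PTGS2 and PLA2G4A, are limited by depth.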
